A study of Mus musculus with 12 samples.

Results

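The genes described here are 8 genes of iron uptake, storage and export in the intestine, which are Cybrd1, Slc11a2, Tfrc, Fth1, Ftl1, Slc40a1, Heph and Ireb2. They were chosen by symbol, and each symbol was paired with its row through the Ensembl identifier in mouse GENCODE M21, so the 8 are named members of a table of 53715 genes. The rule uses no measured value, but the genes were chosen with earlier results of these data known. All 8 passed the filter on low counts, as did 16558 genes in all, and the lowest count of any of the 8 in any library was 27, for Cybrd1.

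The study compared mice that lack the metal transporter Slc39a8 in intestinal epithelial cells with control mice, in ileal and in colonic mucosa. There were 12 RNA-seq libraries in 4 groups, with 3 libraries in each: ileum of control mice, ileum of Slc39a8-IEC KO mice, colon of control mice and colon of Slc39a8-IEC KO mice. All mice were C57BL/6J males of 8 weeks without treatment. The labels give the controls as Slc39a8-fl/fl and the KO mice as Slc39a8-fl/fl:Villin-Cre, so by the labels both genotypes carry the floxed alleles, while by the study's methods some controls were wild-type or carried Vil-Cre without the floxed alleles. The Villin promoter drives Cre in intestinal epithelium, and other cells of the mucosa keep the gene. RNA came from the whole mucosa and was primed with oligo-dT, so each value below is a sum over epithelial, stromal and immune cells, and fewer cells of a type cannot be told apart from less RNA per cell. The labels do not say whether an ileal and a colonic library came from the same mouse.

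Dietary iron enters the enterocyte at the apical membrane after reduction by the reductase that Cybrd1 encodes (duodenal cytochrome b), through the divalent metal transporter DMT1, the product of Slc11a2. Inside the cell it is stored in ferritin, a shell of heavy (Fth1) and light (Ftl1) chains, or leaves across the basolateral membrane through ferroportin (Slc40a1), with oxidation by the membrane ferroxidase hephaestin (Heph) so that transferrin can carry it. Transferrin-bound iron is taken up through the transferrin receptor (Tfrc). Iron regulatory proteins, among them the product of Ireb2, bind a stem-loop called the iron-responsive element: in the 5′ untranslated region they hold back translation, and in the 3′ untranslated region they protect the transcript from decay. Absorption of iron is chiefly a task of the duodenum, which was not sampled, so the levels below are those of distal gut.

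The stem-loop is the feature of sequence by which some of these genes are known to be regulated together, so the matches found in the members are shown. The transcribed strand of every annotated untranslated region of protein-coding transcripts in GENCODE M21 was searched for the loop CAGTGN closed by 5 base pairs (A-T, G-C or G-T) with a C directly before them. A match was present in 31 of 20916 genes with a 5′ untranslated region (0.148%) and in 129 of 21707 genes with a 3′ untranslated region (0.594%). In the members there were 7 matches, 1 each in the 5′ region of Fth1, Ftl1 and Slc40a1 and 4 in the 3′ region of Tfrc. They are printed as 29 bases of the transcribed strand in GRCm38 (mm10), with the loop in capitals.
Fth1, 5′ region, chr19:9982732-9982760, plus strand: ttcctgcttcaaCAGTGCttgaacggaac
Ftl1, 5′ region, chr7:45459779-45459807, minus strand: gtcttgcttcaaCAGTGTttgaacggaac
Slc40a1, 5′ region, chr1:45925465-45925493, minus strand: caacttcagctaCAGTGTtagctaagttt
Tfrc, 3′ region, chr16:32631219-32631247, plus strand: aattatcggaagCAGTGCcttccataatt
Tfrc, 3′ region, chr16:32631598-32631626, plus strand: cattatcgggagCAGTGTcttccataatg
Tfrc, 3′ region, chr16:32631663-32631691, plus strand: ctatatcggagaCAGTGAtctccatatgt
Tfrc, 3′ region, chr16:32631710-32631738, plus strand: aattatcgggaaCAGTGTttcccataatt
The matches of Fth1 and Ftl1 share the 5 base pairs searched for and differ in the last base of the loop. They also differ in bases 1 and 4 of the printed stretch. For Slc11a2, Cybrd1, Heph and Ireb2 these letters were not found in the annotated regions, which says nothing more about these genes. The search asked for 5 unbroken base pairs, so an element with another form of stem would be missed. The match of Fth1 lies in 4 annotated transcripts, and those of the other genes in 1 each, while the counts of a gene sum all its transcripts.

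The depth was between 16749138 and 27903083 expected counts per library. The deleted gene was lower in KO in both tissues: Slc39a8 was at 5.22 to 8.39 CPM, that is, counts scaled to equal library size, in control ileum against 2.62 to 4.35 in KO ileum, and at 20.1 to 20.8 CPM in control colon against 7.35 to 11.5 in KO colon. Over both tissues edgeR put Slc39a8 at a log2 fold change of -1.13 ± 0.17 (adjusted p = 0.382, exact permutation p = 0.005, the smallest possible), with an adjusted p of 1.25e-05 in DESeq2 and 0.0729 in limma-voom. Some libraries stood apart and are named again where they touch a gene. In ileal control replicate 3 and ileal KO replicate 1 the 6 smooth muscle transcripts examined summed to 34.2 and 20.2 CPM, against 1814 to 2643 in the other 4 ileal libraries. In ileal KO replicate 2, 4 of 5 colonocyte transcripts were above the other 5 ileal libraries, with Car1 at 2632 CPM against at most 144, Aqp8 at 67.3 against at most 0.358, Slc37a2 at 37.3 against at most 1.23 and Slc26a3 at 266 against at most 207. The fifth, Car4, was at 129 CPM, inside their range of 84.6 to 436. In colonic control replicate 3 and colonic KO replicate 3 the transcripts of red cells and their precursors summed to 288 and 178 CPM, against at most 35.5 in the other 4 colonic libraries. Against the tissue labels, 6 of 6 ileal enterocyte transcripts were lower in colon in both genotypes. Of the 5 colonocyte transcripts 4 were called higher in colon in control mice, with Slc37a2 not called (-0.25 ± 1.36). In KO mice, whose ileal group holds replicate 2, Car4 and Slc26a3 were called higher, Slc37a2 lower (-3.01 ± 1.24), and Car1 (4.296 ± 1.86) and Aqp8 (1.76 ± 1.62) were not called.

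Between tissues, 4 of the 8 genes differed in the same direction in both genotypes: Fth1, Ftl1 and Slc40a1 were higher in colon and Heph was lower. The storage genes and the exporter rose 2.42- to 5.36-fold, and the ferroxidase fell to 0.418 of its ileal level in control mice and 0.399 in KO mice. In control mice 3 members were called higher and 1 lower at an adjusted p under 0.1 in edgeR, where 35.9% of all 16558 tested genes were called (16.2% higher and 19.6% lower). In KO mice the counts were again 3 and 1, against 37.1% of all genes (17.1% higher and 20% lower). The libraries of the 2 tissues did not overlap for these same 4 genes in either genotype, as held for 40.7% of all genes in control mice and 50.4% in KO mice. The median log2 fold change of the members was 0.73 in control and 0.53 in KO mice, beside 0.016 and 0.0145 over all tested genes. With 4 of 8 called, the share of members is little above that of all genes, and the sizes of the changes are given gene by gene. Scaling to library size alone moved the median of all genes to 0.24 and 0.29 and the share of calls that were higher in colon from 45.3% to 66.4% in control mice and from 46.1% to 70.9% in KO mice. With upper-quartile factors these shares were 55.2% and 58.3%. Under each of these scalings the 4 genes kept their direction and their call, with Heph at -1.02 and -1.048 at the nearest to 0. Without ileal KO replicate 2, in which most colonocyte transcripts were raised, 4 members were again called in each genotype.

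**Figure D1:**
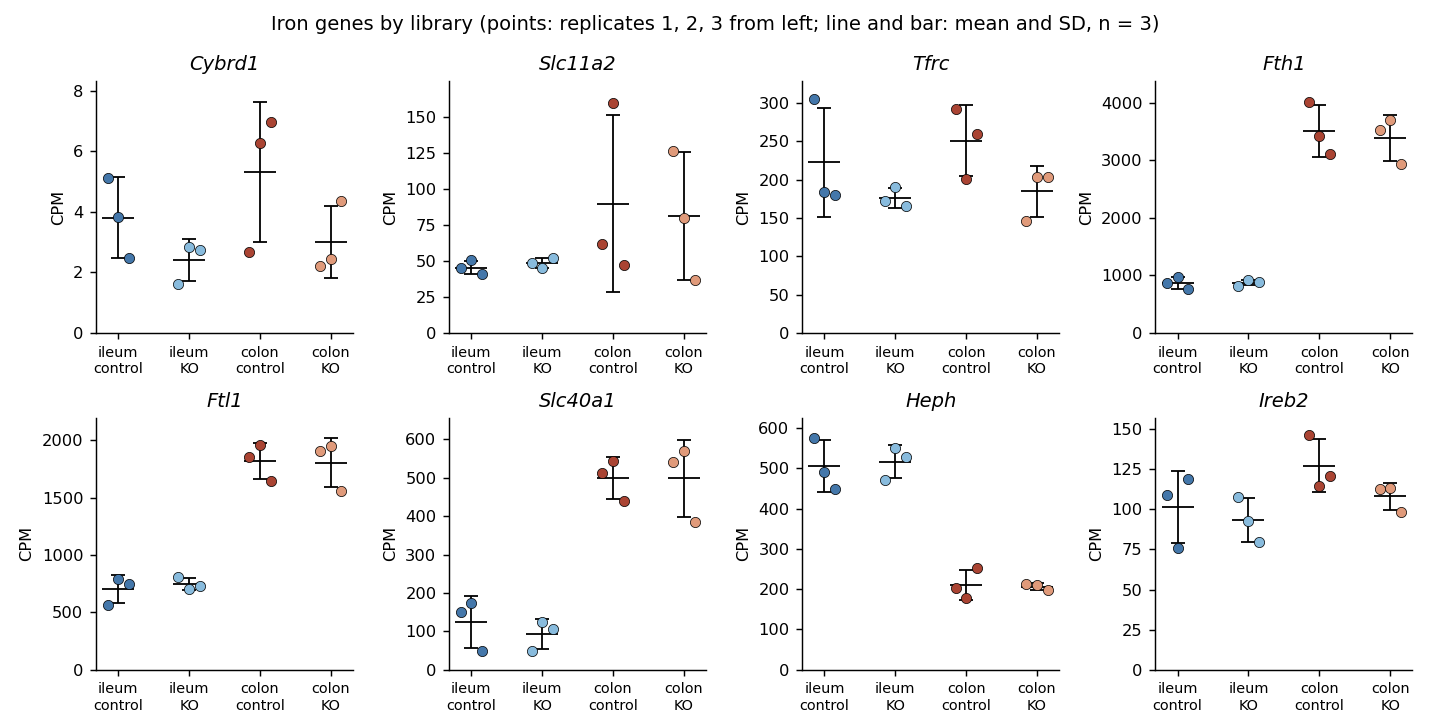
CPM of each of the 8 genes (vertical axis, from 0) in the 4 groups (horizontal axis), with 1 point per library and a line and bar for the mean and SD of 3 libraries. Fth1, Ftl1 and Slc40a1 are higher in all 6 colonic than in all 6 ileal libraries, Heph is lower in all 6, and no gene separates control from KO in both tissues.

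Cybrd1 (ENSMUSG00000027015.4, chr2:71117923-71142926, plus strand), the apical ferric reductase, was the lowest of the 8 genes. It was at 5.12, 3.83 and 2.46 CPM in ileal control replicates 1 to 3 and at 1.61, 2.85 and 2.75 CPM in ileal KO replicates 1 to 3. The colonic values were 2.66, 6.28 and 6.97 CPM in the control libraries and 2.21, 2.43 and 4.36 CPM in the KO libraries. Every group overlapped every other, and counts per library were between 27 and 148, so counting error is part of the spread. The log2 fold change of colon over ileum was 0.49 ± 0.43 (SE, n = 3 per group, adjusted p = 0.427) in control mice and 0.32 ± 0.43 (adjusted p = 0.615) in KO mice.

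Slc11a2 (ENSMUSG00000023030.16, chr15:100387898-100425072, minus strand), the apical iron importer, was even in ileum and uneven in colon. It was at 44.9, 50.5 and 41.0 CPM in ileal control replicates 1 to 3 and at 48.4, 45.3 and 52.3 CPM in ileal KO replicates 1 to 3, so that the highest ileal library was 1.28 times the lowest. Its colonic values were 61.7, 159.9 and 47.0 CPM in the control libraries and 126, 80.1 and 37.0 CPM in the KO libraries, and the highest was 4.32 times the lowest. The 2 lowest colonic libraries lay within or under the ileal range, and the other 4 lay above every ileal library. The log2 fold change of colon over ileum was 0.98 ± 0.46 (adjusted p = 0.135) in control mice and 0.74 ± 0.45 (adjusted p = 0.252) in KO mice, which missed the threshold in edgeR, while DESeq2 gave an adjusted p of 0.0885 in control mice. Without colonic control replicate 2 the control value was 0.26 and without colonic KO replicate 1 the KO value was 0.25. The 2 lowest colonic libraries are those with the most haemoglobin transcripts, and without both of them Slc11a2 was called in each genotype, at 1.26 ± 0.34 (adjusted p = 0.0301) and 1.09 ± 0.34 (adjusted p = 0.0521). That setting was chosen after the values were seen, and the part of blood in the spread was not tested.

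Tfrc (ENSMUSG00000022797.15, chr16:32608920-32632794, plus strand) encodes the receptor through which cells take up iron bound to transferrin, and is highest in dividing cells and red cell precursors. It was at 305, 184 and 180.5 CPM in ileal control replicates 1 to 3 and at 172, 191 and 166 CPM in ileal KO replicates 1 to 3. Colonic control libraries held 292, 201 and 260.2 CPM and colonic KO libraries 146, 204 and 204 CPM. The tissues overlapped in both genotypes, with a log2 fold change of colon over ileum of 0.17 ± 0.22 (adjusted p = 0.605) in control mice, 95% interval -0.32 to 0.66, and 0.065 ± 0.22 (adjusted p = 0.852) in KO mice, interval -0.43 to 0.56. The 6 transcripts of dividing cells summed to 232 to 590 CPM in ileum and to 125 to 156 CPM in colon, and the transcripts of red cells are given above. Tfrc in the 2 colonic libraries rich in haemoglobin transcripts (204 and 260.2 CPM) lay inside the range of the other 4 colonic libraries. The part of dividing cells in the levels of Tfrc was not tested.

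Fth1 (ENSMUSG00000024661.6, chr19:9980598-9985098, plus strand) encodes the ferritin heavy chain, which oxidises iron for storage. It was at 873, 981 and 761 CPM in ileal control replicates 1 to 3 and at 821, 914 and 895 CPM in ileal KO replicates 1 to 3. In colon it was at 4005, 3423 and 3105 CPM in the control libraries and at 3531, 3699 and 2933 CPM in the KO libraries. The lowest colonic library was thus far above the highest ileal library, and the fold was 4.03 in control mice (log2 2.01 ± 0.17, adjusted p = 8.2e-06) and 3.87 in KO mice (log2 1.95 ± 0.17, adjusted p = 1.06e-05). The exact permutation test gave 0.1 in each genotype, for Fth1 as for the other 3 genes whose tissues did not overlap, which is the smallest p that 3 against 3 libraries allow.

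Ftl1 (ENSMUSG00000050708.16, chr7:45457944-45459884, minus strand) encodes the ferritin light chain, which aids the laying down of the iron core. It was at 562, 795 and 744 CPM in ileal control replicates 1 to 3 and at 809.9, 703 and 727 CPM in ileal KO replicates 1 to 3. In colon it was at 1853, 1956 and 1645 CPM in the control libraries and at 1908, 1948 and 1559 CPM in the KO libraries, with no overlap between the tissues. The fold was 2.60 in control mice (log2 1.38 ± 0.17, adjusted p = 0.000126) and 2.42 in KO mice (log2 1.27 ± 0.17, adjusted p = 0.000216), smaller than that of Fth1 in each genotype.

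The ratio of the 2 ferritin chains followed from this. The CPM of Fth1 divided by that of Ftl1 was between 1.01 and 1.55 in the 6 ileal libraries and between 1.75 and 2.16 in the 6 colonic libraries, with no overlap. Divided by gene length, where CPM per kilobase of the union of exons stands for the level, the heavy chain was at 0.391 to 0.600 of the light chain in ileum and at 0.676 to 0.835 in colon. Ferritin genes have many processed copies in the genome, and the study's reporting summary states that reads mapping to more than 1 place were not used, and whether that holds for the deposited expected counts is uncertain. Of the other ferritin-like genes and pseudogenes in the table, Ftl1-ps1 held 1265 counts over all libraries against 314751 for Ftl1, Fth-ps2 held 6 against 537250 for Fth1, and the rest were at 0.

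Slc40a1 (ENSMUSG00000025993.10, chr1:45908068-45926523, minus strand) encodes ferroportin, the exporter of iron, which enterocytes and macrophages use. It was at 150.0, 175 and 48.9 CPM in ileal control replicates 1 to 3 and at 48.4, 124 and 106 CPM in ileal KO replicates 1 to 3. In colon it was at 513, 545 and 439 CPM in the control libraries and at 541, 569.9 and 385 CPM in the KO libraries. All colonic libraries lay above all ileal ones, and 2 of the ileal libraries lay far under the other 4. The fold of colon over ileum was 4.01 in control mice (log2 2.002 ± 0.44, adjusted p = 0.00549) and 5.36 in KO mice (log2 2.42 ± 0.44, adjusted p = 0.00185). The 2 low ileal libraries are those with few muscle transcripts. Without them the log2 fold change was 1.60 ± 0.20 (adjusted p = 7.34e-05) in control mice and 2.12 ± 0.20 (adjusted p = 1.07e-05) in KO mice. Transcripts of macrophages, which also export iron, summed over 8 genes to 51.5 and 55.8 CPM in these 2 libraries, to 101 to 145 CPM in the other ileal libraries and to 45.7 to 104 CPM in the colonic libraries. The part of macrophages or muscle in the levels of Slc40a1 was not tested.

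**Figure D2:**
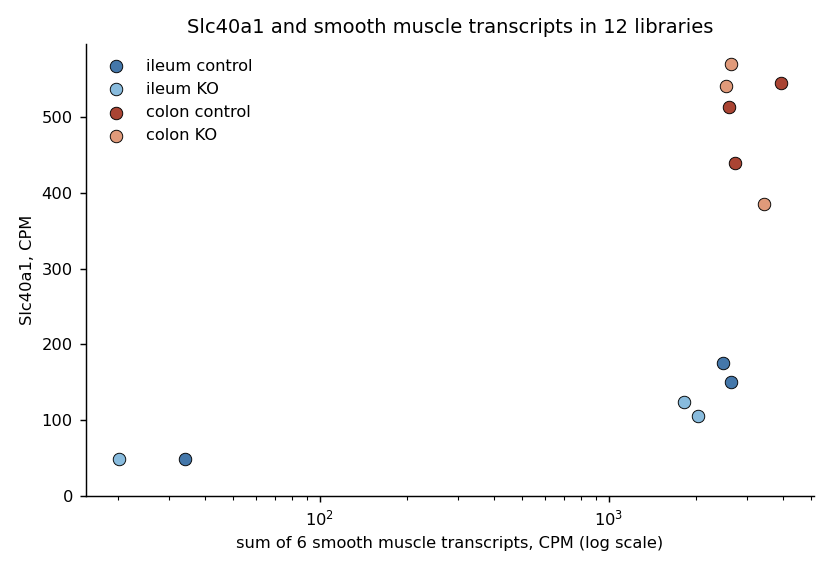
Slc40a1 in CPM (vertical axis, from 0) against the sum of 6 smooth muscle transcripts in CPM (horizontal axis, log scale), 1 point per library. The 2 ileal libraries at the left are at 48.4 and 48.9 CPM, the other 4 ileal libraries between 106 and 175 CPM, and the 6 colonic libraries between 385 and 569.9 CPM.

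Heph (ENSMUSG00000031209.14, chrX:96455359-96574485, plus strand), the ferroxidase that works beside ferroportin, was the member that fell. It was at 576, 492 and 448 CPM in ileal control replicates 1 to 3 and at 470.3, 551 and 529 CPM in ileal KO replicates 1 to 3. In colon it was at 202, 179 and 252 CPM in the control libraries and at 212, 209.7 and 197 CPM in the KO libraries, under every ileal library. Heph was 2.39-fold lower in colon in control mice (log2 fold change -1.26 ± 0.15, adjusted p = 0.000111) and 2.50-fold lower in KO mice (-1.32 ± 0.15, adjusted p = 7.87e-05). The 8 transcripts of epithelium were also lower in colon, 8 of 8 in each genotype, with a median log2 fold change of -1.03 in control and -0.96 in KO mice, and their sum was 19182 to 23820 CPM in ileum and 9509 to 10839 in colon. Whether Heph fell beyond the epithelial share of the RNA was not tested. Ferroportin and its ferroxidase thus moved in opposite directions between the same libraries.

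Ireb2 (ENSMUSG00000032293.8, chr9:54863789-54912530, plus strand) encodes iron regulatory protein 2, whose own level is set mainly through decay of the protein. It was at 109, 75.8 and 119 CPM in ileal control replicates 1 to 3 and at 108, 92.4 and 79.9 CPM in ileal KO replicates 1 to 3. In colon it was at 146, 115 and 121 CPM in the control libraries and at 113, 113 and 98.4 CPM in the KO libraries, and the tissues overlapped. The log2 fold change of colon over ileum was 0.33 ± 0.18 (adjusted p = 0.191) in control mice and 0.21 ± 0.18 (adjusted p = 0.396) in KO mice. Without the 2 ileal libraries with few muscle transcripts it reached 0.44 ± 0.18 in control mice (adjusted p = 0.0761) and 0.34 ± 0.18 (adjusted p = 0.162) in KO mice.

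**Figure D3:**
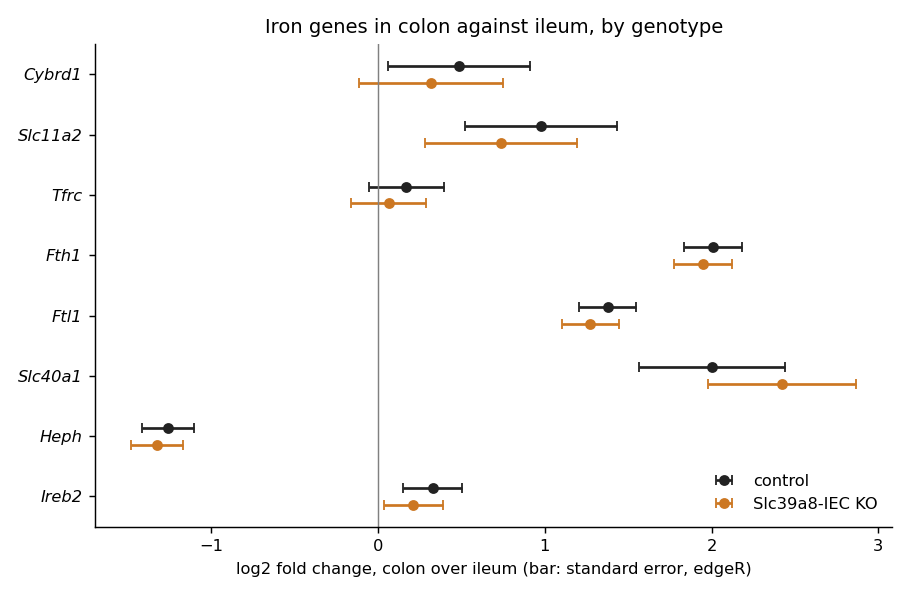
Log2 fold change of colon over ileum (horizontal axis) with its standard error from edgeR for the 8 genes (vertical axis), in control mice (black) and Slc39a8-IEC KO mice (orange). Fth1, Ftl1 and Slc40a1 lie to the right at 1.27 to 2.42, Heph to the left at -1.32 and -1.26, and the other 4 genes lie between 0.065 and 0.98.

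Levels of different genes were compared per length. In control ileum the order of CPM per kilobase was Ftl1 (523 ± 91.6, SD, n = 3), Fth1 (251 ± 31.7), Heph (66.0 ± 8.46), Tfrc (36.1 ± 11.5), Slc40a1 (13.8 ± 7.42), Ireb2 (10.7 ± 2.38), Slc11a2 (7.15 ± 0.759) and Cybrd1 (0.713 ± 0.249). Of these neighbours, the libraries overlapped for Slc40a1 and Ireb2 alone. In control colon the order was Ftl1 (1357 ± 118), Fth1 (1012 ± 132), Slc40a1 (55.4 ± 6.05), Tfrc (40.6 ± 7.51), Heph (27.6 ± 4.83), Slc11a2 (14.1 ± 9.66), Ireb2 (13.4 ± 1.75) and Cybrd1 (0.994 ± 0.433). Here the libraries of Tfrc, Heph, Slc11a2 and Ireb2 overlapped from each neighbour to the next. So Heph stood over Slc40a1 in ileum and under it in colon, which holds in KO mice too (67.5 ± 5.46 against 10.3 ± 4.41 in ileum, 26.9 ± 1.053 against 55.4 ± 11.05 in colon). Transcripts were primed from the poly-A end, so a level per kilobase depends on the length used. In CPM without division by length, Fth1 was above Ftl1 in every library, by a ratio of 1.01 to 2.16. The place of Ftl1 over Fth1 thus rests on the length.

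In colon, 4 of the 8 genes were lowest in the same 2 libraries, control replicate 3 and KO replicate 3, which hold the most haemoglobin transcripts. These were Slc11a2 (37.0 and 47.0 CPM against 61.7 to 159.9), Slc40a1 (385 and 439 against 513 to 569.9), Fth1 (2933 and 3105 against 3423 to 4005) and Ftl1 (1559 and 1645 against 1853 to 1956). Of all tested genes, 6.63% lay under the other 4 colonic libraries in both, and none of the 8 lay above them. The pattern was noticed after the values were seen and is a description with no test. Each genotype has 1 of these libraries, so they do not separate the genotypes. In ileum, Slc40a1, Fth1, Heph and Cybrd1 were lowest in the 2 libraries with few muscle transcripts, but 27.2% of all tested genes were.

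The comparison of genotypes asks whether loss of epithelial Slc39a8, a transporter that can carry iron besides manganese and zinc, went with other levels of the iron genes. No member passed the threshold over both tissues, in ileum, in colon or in the difference between the tissues, by edgeR, DESeq2 or limma-voom. In edgeR this is also the share of all genes called in each of these 4 comparisons, 0%. The deleted Slc39a8 was itself among the genes that edgeR did not call (adjusted p = 0.382 over both tissues). Of 28017 genes, DESeq2 called 4 over both tissues, 2 in ileum, 0 in colon and 1 for the difference. Of 16558 genes, limma-voom called 1, 1, 0 and 0. At an unadjusted p under 0.05 in edgeR there were 2 members over both tissues, both lower in KO, against 3.87% of all genes. In ileum, in colon and for the difference there were 0 members, against 1.52%, 2.33% and 1.02% of all genes, and the same counts of 0 were given by DESeq2 and limma-voom at that unadjusted p.

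These 2 members were Cybrd1 and Tfrc. Cybrd1 had a log2 fold change of KO over control of -0.73 ± 0.29 over both tissues (adjusted p = 0.998, exact permutation p = 0.065), with -0.65 ± 0.43 in ileum and -0.82 ± 0.43 in colon. Its genotypes overlapped in each tissue, and its counts are low. Tfrc was at -0.39 ± 0.15 over both tissues (adjusted p = 0.998, exact permutation p = 0.055), with -0.34 ± 0.22 in ileum and -0.44 ± 0.22 in colon. In ileum the control mean of Tfrc rests on replicate 1, at 305 CPM, while the other 2 control libraries (180.5 and 184 CPM) lay within the KO range of 166 to 191 CPM. Over all alternatives the value of Cybrd1 over both tissues stayed between -0.89 and -0.61 and that of Tfrc between -0.45 and -0.27, with no call in any. Over both tissues the smallest p that exchanges within tissue allow is 0.005.

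**Figure D4:**
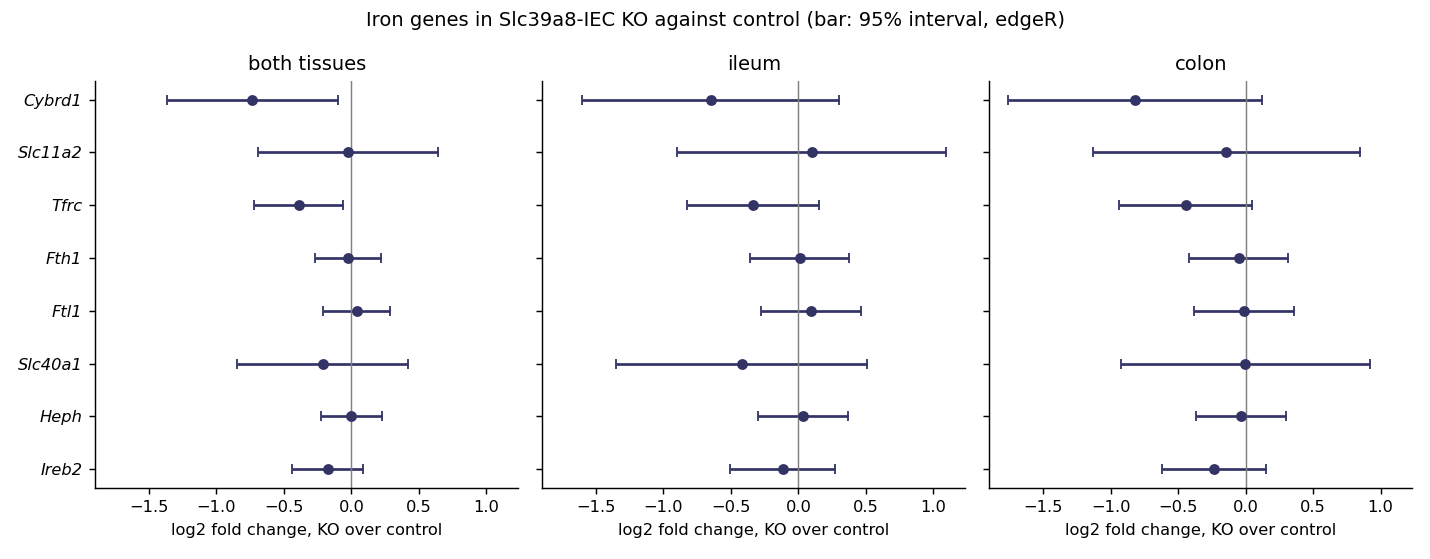
Log2 fold change of Slc39a8-IEC KO over control (horizontal axis) with its 95% interval from edgeR for the 8 genes (vertical axis), over both tissues, in ileum and in colon. The intervals of Cybrd1 and Tfrc over both tissues end at -0.10 and -0.06, and every other interval includes 0.

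For the other 6 genes the intervals bound what could have been missed, over both tissues more closely than in a single tissue. The ferritin chains and hephaestin were the most closely bounded over both tissues, with a log2 fold change of -0.02 (95% interval -0.27 to 0.22) for Fth1, 0.04 (-0.21 to 0.29) for Ftl1 and 0.0001 (-0.22 to 0.22) for Heph. Ireb2 was at -0.18 (-0.44 to 0.08). Slc40a1 (-0.21, interval -0.84 to 0.42) and Slc11a2 (-0.02, interval -0.69 to 0.64) were less closely bounded. In colon alone their intervals were wider still, -0.93 to 0.92 for Slc40a1 and -1.13 to 0.85 for Slc11a2. By qPCR in enteroid monolayers from KO mice, the study reported significantly more Slc11a2 and significantly less Slc40a1. Those were cultured epithelial cells from ileum, while the values here are of whole mucosa. In ileal mucosa the log2 fold change was 0.10 (95% interval -0.90 to 1.09) for Slc11a2 and -0.42 (-1.35 to 0.51) for Slc40a1. These intervals include 0 and span changes in either direction. The study found no difference in tissue iron between the genotypes, in older mice. In colon all KO libraries of Ireb2 lay under all control libraries, by 113 against 115 CPM at the nearest, and it was the only member whose genotypes did not overlap there, where 12.8% of all genes did not overlap. In ileum no member separated the genotypes, against 3.7% of all genes, and over both tissues none did, against 0.411%. The log2 effect of genotype in colon minus that in ileum was between -0.24 (Slc11a2) and 0.42 (Slc40a1), with standard errors of 0.21 to 0.64, and none of these differences was called.

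The wider pathway was described with 7 lists of 55 iron genes, of which 48 passed the filter. Between tissues 18 of the 48 were called in control mice (7 higher and 11 lower in colon) and 19 in KO mice (10 higher and 9 lower), which is close to the share of all genes given above. Without the 2 colonic libraries rich in haemoglobin transcripts the counts were 12 and 15, and without the 2 ileal libraries with few muscle transcripts they were 22 and 21. Scaled to library size alone, 14 were higher and 9 lower in control mice and 13 and 7 in KO mice, so the balance of directions over the lists depends on the scaling. Over both tissues none was called between genotypes in edgeR, with 2 at an unadjusted p under 0.05, and 1, the deleted Slc39a8, was called by DESeq2 and by limma-voom. Leaving out both muscle-poor ileal libraries, edgeR called 1 as well, again Slc39a8 (-1.24, adjusted p = 0.0194).

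Of the 7 lists, haem handling had the most called members, 9 of 10 in each genotype, beside 35.9% of all genes in control and 37.1% in KO mice. The list was singled out by its values, and its share was not tested. Hmox1, the inducible haem oxygenase that frees iron from haem, was at 0.765 to 2.06 CPM in the 6 ileal libraries and at 8.22 to 60.4 CPM in the 6 colonic ones, with log2 fold changes of 4.33 ± 0.70 in control and 3.03 ± 0.66 in KO mice (adjusted p = 0.000769 and 0.00543). The 60.4 CPM belong to colonic control replicate 2, the library in which Slc11a2 was also highest, and the other 5 colonic libraries were at 8.22 to 15.6 CPM. Fech, the enzyme that puts iron into haem, rose by 0.52 ± 0.12 and 0.56 ± 0.12. The haem exporter Flvcr1 was lower in colon, at 6.12 to 8.52 CPM against 33.5 to 70.0 CPM, with log2 fold changes of -2.36 ± 0.24 and -2.91 ± 0.24. Its relative Flvcr2 had 90 to 258 counts in each ileal library and 1 to 7 in each colonic library, so its fold is set by few counts. In control mice 3 haem genes were called higher and 6 lower, and in KO mice 4 and 5.

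Of the regulators, Epas1, a hypoxia-inducible factor that drives genes of iron absorption, was higher in colon (42.3, 53.6 and 34.7 CPM in control ileum against 80.1, 76.7 and 90.9 in control colon). Its log2 fold change was 0.92 ± 0.15 in control mice (adjusted p = 0.000836) and 1.09 ± 0.15 in KO mice (adjusted p = 0.000262). Aco1, which encodes iron regulatory protein 1, was lower, at -1.51 ± 0.22 and -1.44 ± 0.22 (adjusted p = 0.000368 and 0.000511), and Hif1a, another hypoxia-inducible factor, was lower at -0.82 ± 0.23 and -1.05 ± 0.23. The other 5 regulators were not called in either genotype. So of the genes for the iron regulatory proteins, Aco1 fell between ileum and colon while Ireb2 did not pass the test.

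The other lists had few called genes. Slc25a37, mitoferrin 1 of the inner mitochondrial membrane, was lower in colon by -1.34 ± 0.16 and -1.75 ± 0.16, while Glrx5 was called higher in control mice (0.90 ± 0.30) and Iscu in KO mice (0.44 ± 0.14), both of iron-sulphur assembly. Hfe, a partner of transferrin receptors, was higher at 0.88 ± 0.27 and 1.16 ± 0.27, and hepcidin (Hamp) had at most 27 counts in any library and was not tested. On the list of chaperones and ferritin turnover, Pcbp1, which delivers iron to ferritin, was lower at -0.54 ± 0.16 and -0.50 ± 0.16. From the same list Pcbp4 and Slc22a17 were called higher in KO mice (0.91 ± 0.29 and 1.40 ± 0.47). In control mice these were at 0.63 ± 0.29 (adjusted p = 0.131) and 0.90 ± 0.47 (adjusted p = 0.182), and the difference between genotypes was called for 0 of the 48 genes, with 0 at an unadjusted p under 0.05 in edgeR and 0 called by DESeq2 and limma-voom. On the list of further ferrireductases and ferroxidases Steap1 was the only gene called, lower in control mice at -1.37 ± 0.48. Slc39a8 itself was the only other metal importer called, higher in colon by 1.61 ± 0.26 in control and 1.46 ± 0.26 in KO mice.

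**Figure D5:**
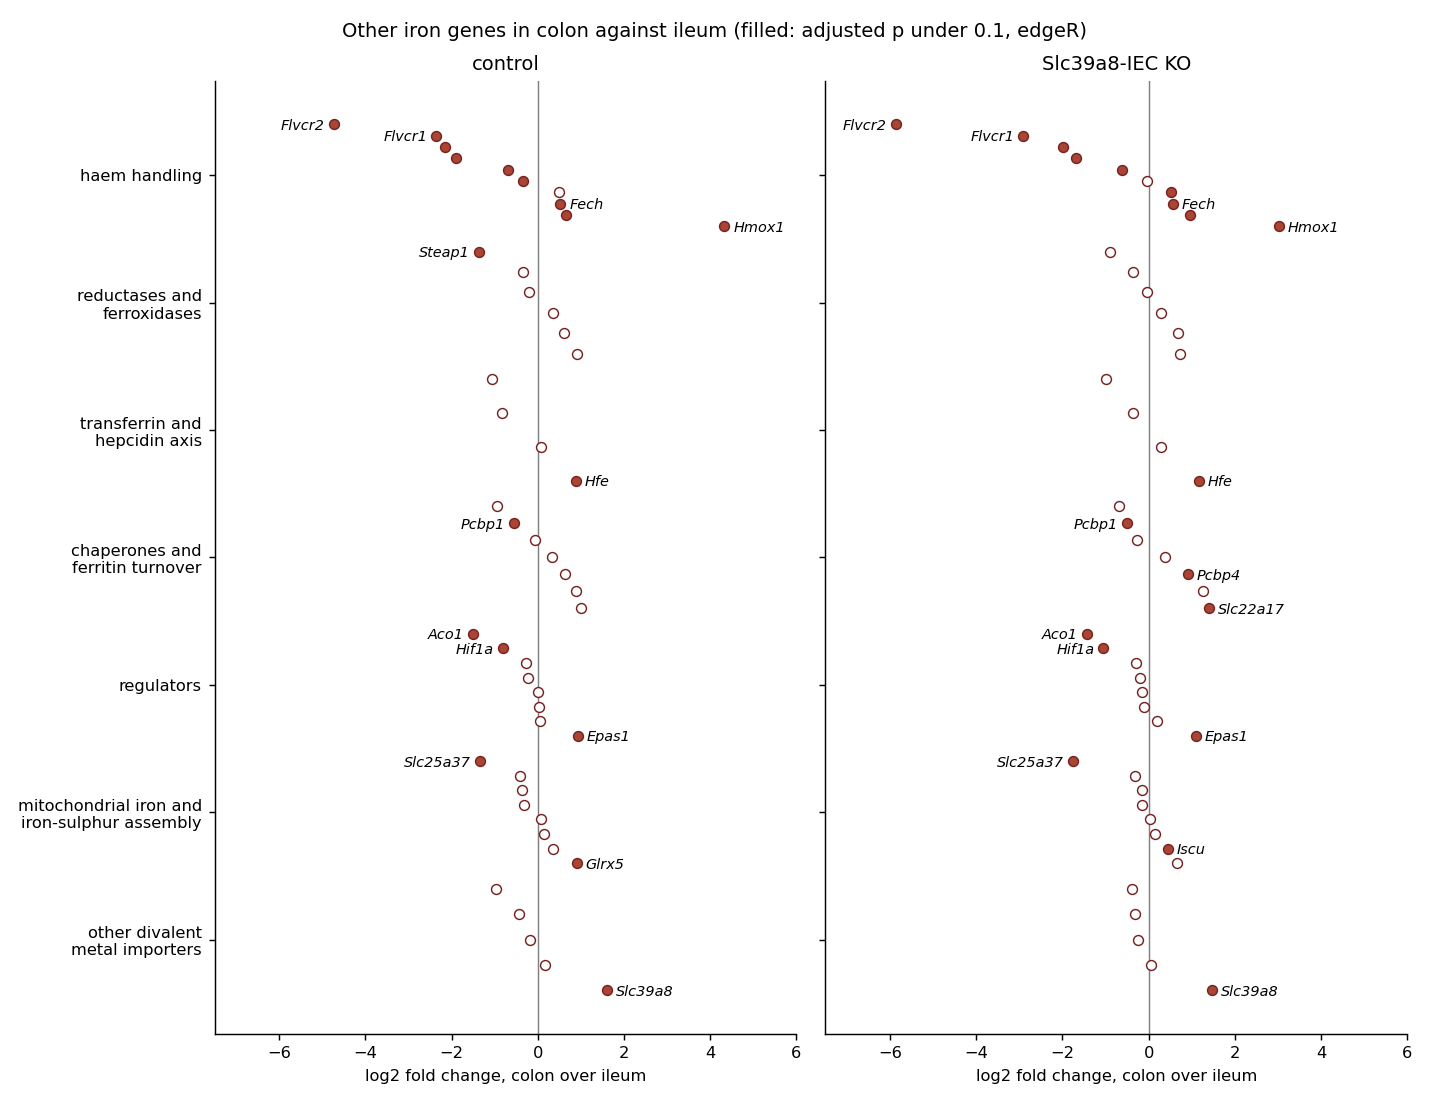
Log2 fold change of colon over ileum (horizontal axis) for the 48 tested genes of 7 iron lists (vertical axis), in control (left) and Slc39a8-IEC KO mice (right), filled where the adjusted p from edgeR was under 0.1. Hmox1 is farthest to the right in both panels at 4.33 and 3.03, and Flvcr2, which rests on few counts in colon, farthest to the left.

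Genes with a pattern like that of each member were looked for by Pearson's r of log2 CPM over the 12 libraries, among 8754 genes with a mean of at least 10 CPM. The 12 points share tissue, which sets most of each r, so these are descriptions. Heph was most like Epcam (r = 0.99) and Pls1 (0.99), both genes of epithelial cells, and Slc40a1 was most like Ints6l (0.99) and Fam162a (0.99). Fth1 was most like Aspg (0.998) and Slc35d1 (0.99), and Ftl1 most like Rnf186 (0.99) and Adam15 (0.99). Members with little tissue difference had lower values, with Hpse (0.88) for Slc11a2, Il6st (0.83) for Cybrd1, Pdp1 (0.90) for Tfrc and Gtpbp10 (0.96) for Ireb2. Among the members themselves the r of deviations from the group means leaves tissue and genotype out. Over the 12 libraries it was highest of all pairs for Slc40a1 and Fth1 (0.72) and lowest for Tfrc and Ftl1 (-0.73). For the 2 ferritin chains it was 0.36. Slc40a1 and Fth1 were both lowest in the muscle-poor ileal and the haemoglobin-rich colonic libraries, a difference that these r still hold. Its part in them was not tested.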

How the data were processed

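The authors deposited a single table, in which each value is an expected count per gene and library, without normalization and not always whole. Per the labels and the study's methods the reads were aligned with STAR to mm10. The study's reporting summary names FeatureCounts for counting, after uniquely mapped reads were kept and UMI-tools took out duplicates. FeatureCounts gives whole counts by default, whereas the deposited columns carry the heading expected count and 93.7% of their values are whole, so the tool behind this table is uncertain. Spike-in lines (92) were at 0 and left out. Columns were assigned to groups by the sample labels. Counts were rounded and analysed in edgeR 4.0.16 (R 4.3.3): filterByExpr, TMM factors, glmQLFit and glmQLFTest on all 12 libraries, with Benjamini-Hochberg adjustment over 16558 genes and a threshold of 0.1, as in the study. Tissue and single-tissue genotype comparisons came from a model of the 4 groups, and genotype over both tissues from a model with tissue as a term. DESeq2 1.42.0 and limma-voom (limma 3.58.1) were alternatives. The steps were tested on simulated data. CPM used TMM-scaled library sizes. Permutation tests are exact and two-sided on log2 of CPM plus 0.5. Standard errors and 95% intervals are from edgeR, and its p-values rest on a spread between libraries that all groups of a model share. The fits take all libraries as independent, and the labels do not say whether both tissues came from the same mice. The depth of 16749138 to 27903083 expected counts per library limits the precision of Cybrd1 most. Alternatives were other scalings, filters, tools, thresholds and samples, leaving out each library, and a replicate block.

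The members and the lists were chosen with earlier results of these data known. The text names the 8 members whatever their values, Slc39a8 as the check of genotype, and from each iron list the up to 2 genes with the smallest p in each direction among those called. Markers of 10 cell types were read as summed CPM. Gene identifiers were matched to GENCODE M21 without their version (53620 of 53715 matched; Tfrc and Fth1 differ in version). Same-numbered ileal and colonic libraries of control mice had r of deviations from group means of -0.053, 0.165 and -0.080. In KO mice these r were 0.192, 0.051 and 0.251. The widest values, -0.69 and 0.40, were between control and KO ileum, which are different mice. These r do not settle whether both tissues came from the same mice, and replicate numbers were not taken as pairs in the main fits. Figures were drawn with matplotlib 3.10.9.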

Additional observations from a re-analysis of the deposited data

How the results depend on the processing

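The 4 genes called between tissues (Fth1, Ftl1, Slc40a1 and Heph) kept their direction and call under every alternative at the 0.1 threshold, and 4 to 6 members were called in control mice and 4 or 5 in KO mice. No member was called between genotypes under any of them. Slc11a2 was also called in control mice with DESeq2 (0.98), library size only (1.24) and without colonic KO replicate 3 or colonic control replicate 3 (0.95 and 1.26), and in KO mice without colonic KO replicate 3 (1.09). Ireb2 was also called in control mice with library size only (0.53) and upper-quartile factors (0.43). The depth and 3 libraries a group limit what could be resolved to the intervals given.

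The replicate block changed no call of a member, with 4, 4 and 0 members called in control tissue, KO tissue and genotype over both tissues. It turned only the sign of Slc11a2 over both tissues (0.0187). With the longest transcript as length, control colon had CPM per kilobase of 127.0 for Slc40a1, 44.5 for Heph, 51.3 for Tfrc, 1703 for Fth1, 1878 for Ftl1 and 22.1 for Ireb2, which then stood above Slc11a2 (20.3).

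Every other change of sign was in a log2 fold change that had not been called. KO over control over both tissues, Slc11a2 was at 0.0387 with library size only and 0.0203 without the 2 colonic libraries with most haemoglobin transcripts. Heph was at -0.0013 (RLE factors), -0.0027 (stricter filter), -0.0129 (upper quartile) and -0.0086 (without the 2 ileal libraries with few muscle transcripts), and Fth1 at 0.0619 (library size only). In ileum Fth1 was at -0.0035 (libraries of the comparison only), -0.0232 (upper quartile), -0.0474 (without the 2 muscle-poor libraries) and -0.0014 (without the 2 haemoglobin-rich libraries). In colon Slc40a1 was at 0.0031 (DESeq2), 0.0003 (RLE), 0.0947 (library size only), 0.0246 (no filter), 0.0142 (without muscle-poor) and 0.0840 (without haemoglobin-rich libraries). Heph was at 0.0703 (library size only) and 0.1592 (without haemoglobin-rich), Fth1 at 0.0547 (library size only), and Ftl1 at 0.0882 (library size only), 0.0169 (no filter), 0.0051 (without muscle-poor) and 0.0321 (without haemoglobin-rich). For colon minus ileum, Tfrc was at 0.0356 and Fth1 at 0.0109 without muscle-poor libraries, and Heph at 0.1367 without haemoglobin-rich ones. Colon over ileum in KO mice, Cybrd1 was at -0.0481 and Tfrc at -0.0118 without haemoglobin-rich libraries. The settings without those 2 libraries were chosen after seeing the data. The cause was not tested.

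Leaving out each library in turn changed the sign of 22 of the 48 log2 fold changes of the members in at least 1 fit, none of them called. Colon over ileum in KO mice, Cybrd1 ranged from -0.0498 to 0.4783 and Tfrc from -0.0128 to 0.1914. KO over control over both tissues, Slc11a2 ranged from -0.2205 to 0.311, Heph from -0.0428 to 0.0696, Fth1 from -0.0563 to 0.0288 and Ftl1 from -0.0249 to 0.0913. In ileum Heph ranged from -0.0467 to 0.1371, Fth1 from -0.08 to 0.1023, Ftl1 from -0.0433 to 0.1943 and Ireb2 from -0.2872 to 0.0156. In colon Slc11a2 ranged from -0.6309 to 0.5795, Slc40a1 from -0.1086 to 0.1692, Heph from -0.1368 to 0.1275, Fth1 from -0.119 to 0.0566 and Ftl1 from -0.07 to 0.0997. For colon minus ileum, Slc11a2 ranged from -0.7321 to 0.4808, Cybrd1 from -0.5122 to 0.106, Heph from -0.1694 to 0.104, Tfrc from -0.3984 to 0.0388, Fth1 from -0.1538 to 0.0571, Ftl1 from -0.205 to 0.0331 and Ireb2 from -0.2361 to 0.0529. The fits that left a group with 2 libraries took the spread from all groups.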
